A study of Homo sapiens with 10 samples.

Results

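RNA in 2 pellets of vesicles released by PC3 cells was compared, one from a fast and one from a slow spin. PC3 is an established human prostate cancer line. Extracellular vesicles (EVs) were collected at 3 centrifugation speeds, and the comparison sets the pellet of the fastest spin (EV 100K, 3 libraries) against the pellet of the slowest (EV 2.8K, 3 libraries). These 6 libraries are 6 of the 10 in the study; 3 libraries of an intermediate pellet (EV 10K) and 1 library of whole cells (EVs not isolated) serve as context. All 4 groups came from the same line, with no treatment or genetic change named, grown in Dulbecco's medium with fetal bovine serum; the sources used here do not say whether the serum had been cleared of bovine vesicles. The labels give the speeds without a unit and number the libraries as sets 1 to 3 without saying that the sets were separate cultures, so p-values measure only the spread between these libraries, which may be technical. Gene-assigned reads numbered 8083438, 5424964 and 6631087 in EV 100K, 14856424, 14977955 and 10288246 in EV 2.8K, and 28735081 in the cell library.

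EVs are membrane-bound particles that cells shed. Slow spins bring down large ones, such as blebs and apoptotic bodies that bud from the cell surface, and fast spins bring down small ones, among them exosomes that form inside endosomes and are released when those fuse with the plasma membrane. Spins also collect non-vesicular material of a like size: protein-RNA complexes and particles such as ribosomes and vaults at high speed, and cell debris and free organelles at low speed. The RNA inside EVs is taken from the cytoplasm, so an mRNA's place in the cell can bear on the particle in which it can leave.

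The label of the cell line was checked on marker genes. VIM and KRT18, an intermediate filament protein of mesenchymal cells and an epithelial keratin, were found in every library, at 115, 196 and 175 CPM in EV 100K, against 1051, 727 and 716 CPM in EV 2.8K for VIM and at 163, 144 and 149.5 CPM in EV 100K, against 795, 546 and 574 CPM in EV 2.8K for KRT18. CDH1, an epithelial adhesion protein, was at 0 in 3 of the 6 libraries, and EPCAM did not exceed 9.63 CPM in any of the 6 libraries or the cell library. CPM are counts brought to a common library size with the normalisation factors of the 10 libraries. None of 5 blood and serum markers (such as ALB and HBB) had a count in these 7 libraries. Among leukocyte markers, PTPRC and CD3E had none, and LYZ and CD68 had counts in the cell library only (1.06 and 0.172 CPM). Of 3 platelet markers, PF4 and PPBP had none and ITGA2B was at 4.92, 6.25 and 1.76 CPM in EV 100K, against 0, 0.18 and 6.68 CPM in EV 2.8K. Of 6 fibroblast markers, DCN and LUM had none and COL1A1, with the highest level, was at 3.52, 2.57 and 1.28 CPM in EV 100K, against 27.5, 3.17 and 13.1 CPM in EV 2.8K; no marker of these 4 lists was called. In the 6 libraries, 5 of the 6 tested PC3 epithelial markers (KRT18, VIM, KRT8, CD44 and EZR) were lower in EV 100K.

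Of 14377 genes and catalogue lncRNAs tested by edgeR's quasi-likelihood test, 1860 were higher in EV 100K (12.9%) and 2050 were lower (14.3%), at an adjusted p below 0.05; in either direction the share was 27.2%. All 1860 higher and 2036 of the 2050 lower features had non-overlapping libraries, against 46.6% of all tested features in either direction. An absolute log2 fold change above 1 was passed by 1595 of the higher and 1769 of the lower features. The median log2 fold change was 1.65 among the higher features, -1.58 among the lower and -0.02 over all. The 3 EV 100K libraries resembled each other more (biological coefficient of variation 0.255) than the 3 EV 2.8K libraries did (0.851). EV 2.8K replicate 1 stood apart, with 12.9% of its counts on mitochondrially encoded genes against 4.92% and 4.81% in the other EV 2.8K libraries; without it, 2585 features were higher and 2460 lower. With EV 100K replicate 1, 2 or 3 left out instead, 1114, 1237 and 1149 features were higher and 1188, 1237 and 1245 lower. A single number in brackets after a gene is its log2 fold change, EV 100K over EV 2.8K, and marks a gene that passed the test. Genes named beyond a fixed rule on the size and p of the change were picked after their values were seen. An EV pellet is a bulk sample, in which fewer particles that carry an RNA cannot be told apart from less of it per particle.

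**Figure D1:**
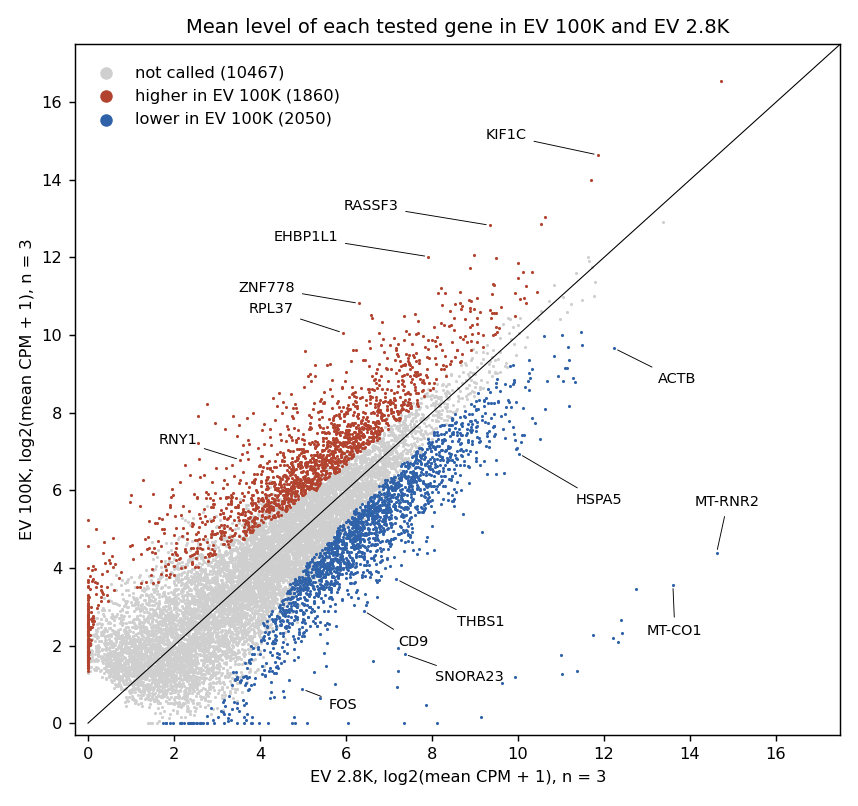
Mean level of each tested gene in EV 100K (vertical axis) and EV 2.8K (horizontal axis), both as log2(mean CPM + 1) over 3 libraries; the diagonal marks equal levels and colours mark calls of edgeR's test. The 1860 features higher in EV 100K lie above the diagonal and the 2050 lower features below it, with MT-CO1 and MT-RNR2 farthest below among the labelled genes.

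The small noncoding RNAs went in opposite directions by type. All 4 tested RNAs of the Y and vault families, made by RNA polymerase III, were higher in EV 100K (background 12.9%), with a median log2 fold change of 2.85. None of 51 tested small nucleolar and Cajal body RNAs was higher and 25 were lower (background 14.3%), with a median of -3.87. Some members, such as SNORA66 and SNORA72 with no count in EV 100K, passed the filter on low counts through EV 2.8K alone. The share called lower and the median are therefore partly set by that filter. The list holds names beginning with SNOR or SCARNA. A gene named U3, annotated as a nucleolar RNA and outside the list, was higher (2.57). Y RNAs bind the RO60 protein, vault RNAs are part of the large cytoplasmic vault particle, and small nucleolar and Cajal body RNAs guide the chemical modification of other RNAs inside the nucleus. The sequences of 3 higher RNAs and 1 lower RNA of these kinds are shown for the motif near the 3′ end of each, which does not by itself set the class. They are from GENCODE release 29 on GRCh38, 5′ to 3′, and were chosen after their values were seen. In the first 3, the capitals mark the run of T at the 3′ end, where RNA polymerase III stops.
RNY1: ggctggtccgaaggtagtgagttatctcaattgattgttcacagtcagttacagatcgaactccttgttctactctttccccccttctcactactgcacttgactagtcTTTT
VTRNA1-1: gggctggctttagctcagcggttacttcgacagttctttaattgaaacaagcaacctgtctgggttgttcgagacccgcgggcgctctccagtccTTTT
RNU6ATAC: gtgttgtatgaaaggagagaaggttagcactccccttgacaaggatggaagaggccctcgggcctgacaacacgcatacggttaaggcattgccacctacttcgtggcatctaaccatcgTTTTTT
In SCARNA21 the capitals mark the ACA near the 3′ end.
SCARNA21: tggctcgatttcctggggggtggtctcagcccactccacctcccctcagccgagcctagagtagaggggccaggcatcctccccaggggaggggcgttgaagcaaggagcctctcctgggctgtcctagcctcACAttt
These genes are at chr7:148987136-148987248, minus strand (RNY1), chr5:140711275-140711373, plus strand (VTRNA1-1), chr9:134164439-134164564, minus strand (RNU6ATAC) and chr17:7906122-7906260, plus strand (SCARNA21). A final TTTT is annotated in 27.6% of 1900 snRNA transcripts, 3.52% of 2213 transcripts of the class that holds Y RNAs, 0.424% of 943 snoRNA transcripts and none of 49 scaRNA transcripts. ACA 3 bases from the end is found in 53.1% of the scaRNA transcripts and 29.7% of the snoRNA transcripts. Both motifs were sought on the transcribed strand.

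RNY1 was at 119, 106 and 102 CPM in EV 100K, against 12.6, 8.32 and 10.9 CPM in EV 2.8K, and its log2 fold change was 3.38 (SE 0.27, adjusted p = 5.13e-05). VTRNA1-1, at 110.2, 167 and 88.1 CPM in EV 100K, against 17.9, 10.0 and 4.88 CPM in EV 2.8K, had one of 3.49 (SE 0.47, adjusted p = 0.00071). Both were higher in every EV 2.8K library than in the cell library, where RNY1 stood at 2.87 and VTRNA1-1 at 1.12 CPM. VTRNA1-2, another vault RNA, was also higher (2.32).

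In a list of 12 tested spliceosomal snRNAs, 4 were higher (background 12.9%) and 1 was lower (background 14.3%). With single libraries left out, 1 to 5 were higher. Of all 37 tested genes annotated as snRNA, 12 were higher and 6 lower. RNU6ATAC, the U6-type RNA of the minor spliceosome, which removes a rare class of introns, was at 47.8, 51.6 and 48 CPM in EV 100K, against 8.19, 2.1 and 9.17 CPM in EV 2.8K, a log2 fold change of 2.94 (SE 0.52, adjusted p = 0.00285). RNU4ATAC, its partner, was higher as well (2.12), and so was RNU6-8, a copy of the U6 RNA (2.17). RNU6-1, another U6 copy, had no count in EV 2.8K and was at least 40.1-fold higher in EV 100K against a floor of 3 counts over the group. The list member called lower, RNU5A-1, had a log2 fold change of -3.04 (SE 0.96, adjusted p = 0.0411) and lost its call under 6 alternatives. snRNA genes have many near-identical copies, among which reads may have been split.

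SNORA23, a small nucleolar RNA of the class that guides pseudouridine formation, was at 1.41, 3.31 and 2.57 CPM in EV 100K, against 236, 164 and 93.7 CPM in EV 2.8K, a log2 fold change of -6.09 (SE 0.47, adjusted p = 4.66e-05). SCARNA21, which resides in Cajal bodies, was at 3.52, 3.12 and 1.76 CPM in EV 100K, against 109, 181 and 149 CPM in EV 2.8K, with -5.69 (SE 0.36, adjusted p = 2.62e-05). The EV 2.8K libraries were above the cell library for both (32.2 and 40.4 CPM there) and the EV 100K libraries were below it. SNORA66 had no count in EV 100K and was at least 80.6-fold lower there. Leaving out single libraries gave 14 to 27 lower members. Summed over all genes annotated as either type, U3 included, they had 0.0152%, 0.0115% and 0.0135% of all counts in EV 100K, against 0.112%, 0.126% and 0.08% in EV 2.8K. Most such RNAs lie within introns of host genes, and reads of host transcripts cannot be told apart from their own in these counts.

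Of the RNAs encoded by the mitochondrial genome, all 13 mRNAs and both rRNAs were lower. Of 22 mitochondrial tRNAs, none had a count in EV 100K and 18 had one in EV 2.8K; the 7 tested ones passed the filter on low counts through EV 2.8K alone. MT-ND6, the only mitochondrial mRNA encoded on the light strand, had no count in EV 100K and was at least 1014-fold lower there. mRNAs that the nucleus encodes for the same organelle were called in both directions. Their background is that of nuclear protein-coding genes, 13.2% higher and 16.3% lower. Subunits of the respiratory chain and of ATP synthase were lower more often than higher. Lower were 14 of 38 for complex I (6 higher), 4 of 9 for complex III (2 higher) and 7 of 11 for complex IV (1 higher). For ATP synthase 7 of 18 were lower and 2 higher. Of 77 mitochondrial ribosomal protein mRNAs, 7 were higher (9.09%) and 20 lower (26%), with a median of -0.70. With single libraries left out, 8 to 22 were lower. Of 23 mRNAs of the machinery that imports proteins into mitochondria, 6 were higher (26.1%), with a median of 0.41. The 3 lower ones (13%) were below the background share. TOMM20, the outer-membrane receptor for proteins to be imported, was at 197, 166 and 229 CPM in EV 100K, against 43.5, 58.6 and 60.9 CPM in EV 2.8K, a log2 fold change of 1.87 (SE 0.22, adjusted p = 0.000363). TIMM10, a chaperone of the space between the membranes, was higher by 1.84, and TIMM21, of the inner membrane, by 2.18. TOMM40, the outer-membrane channel itself, fell to 42.9, 67.6 and 28.7 CPM in EV 100K, against 139.5, 125 and 104 CPM in EV 2.8K (log2 fold change -1.39, SE 0.32, adjusted p = 0.0101). TIMM17B and TIMM50, of the inner-membrane channel complex, were lower too (-1.69 and -1.02).

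Some of the most abundant mRNAs of EV 100K belong to a set with a known place in the cell. That set, including those of RAB13, NET1, KIF1C and TRAK2, gathers at the tips of protrusions in mouse fibroblasts and in migrating human cancer cells. Of 15 such mRNAs tested, 8 were higher in EV 100K (background 12.9%) and 4 were lower (background 14.3%), with a median log2 fold change of 1.18. KIF1C, a kinesin motor that carries cargo and mRNA along microtubules, was at 28470, 22720 and 25530 CPM in EV 100K, against 4455, 2757 and 3882 CPM in EV 2.8K. Its log2 fold change was 2.80 (SE 0.24, adjusted p = 6.82e-05), and the cell library held 321 CPM. RASSF3, of the RAS-association domain family, was at 8277, 6174 and 7386 CPM in EV 100K, against 786, 508 and 651 CPM in EV 2.8K and 39.3 CPM in the cell library. Its log2 fold change was 3.50 (SE 0.24, adjusted p = 3.17e-05), and every library of either pellet lay above the cell library for both mRNAs.

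NET1, an exchange factor that activates RHOA, was at 17040, 15230 and 16920 CPM in EV 100K, against 3268, 2819 and 3935 CPM in EV 2.8K (log2 fold change 2.31, SE 0.20, adjusted p = 7.19e-05). TRAK2, which links mitochondria to kinesin, was at 8964, 7347 and 9162 CPM in EV 100K, against 1567, 1309 and 1898 CPM in EV 2.8K (log2 fold change 2.43, SE 0.21, adjusted p = 7.34e-05). The groups did not overlap for either mRNA, and the cell library held 231 CPM of NET1 and 76.3 of TRAK2. RAB13, a small GTPase of junctions and the cell edge, was at 1629, 1101 and 1420 CPM in EV 100K, against 619.7, 614 and 767 CPM in EV 2.8K (log2 fold change 1.07, SE 0.20, adjusted p = 0.00392), and the cell library held 12.9 CPM. All 3 EV 10K libraries were higher than those of either pellet, at 3504, 2568 and 2981 CPM, as they were for 1.64% of all tested features and for no other member of the list. The EV 10K mean was above both pellets for 8 of the 15 members and for 21.8% of all tested features. Among the 8 were RAB13, NET1, PKP4 and CDC42BPG, called higher in EV 100K, and ARPC3, DYNLL1 and RHOA, called lower. The list members called lower were CYB5R3 (-2.75), DYNLL1 (-1.45), ARPC3 (-1.37) and RHOA (-0.79), a reductase, a dynein light chain, an actin-branching subunit and a small GTPase.

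Divided by the summed length of all annotated exons of the gene, a scale chosen after the values were seen, these mRNAs ranked among the highest nuclear protein-coding genes of EV 100K. NET1 ranked 1 in EV 100K, with a mean of 3930 CPM per kb, against rank 13 in EV 2.8K, with 800.0 CPM per kb, and rank 520.0 in the cell library. KIF1C ranked 2 in EV 100K, against 35 in EV 2.8K, and 882 in the cell library. RASSF3 ranked 5, 185 and 3867 in the same order, and TRAK2 9, 114 and 3626. S100A6, a small calcium-binding protein, held rank 25 in EV 100K and rank 1 in EV 2.8K. The most abundant feature of all, listed as lnc-ARF6-1 in a lncRNA catalogue whose annotation was not used here, was at 121800, 73800 and 90650 CPM in EV 100K, against 45160, 18140 and 17220 CPM in EV 2.8K and 1326 CPM in the cell library (log2 fold change 1.84, SE 0.39, adjusted p = 0.00712). Whether reads of an overlapping RNA were counted there was not tested. It carried most of the larger share of catalogue lncRNA counts in EV 100K, which was 13.4%, 9.85% and 11.2%, against 5.15%, 4.17% and 4.32% in EV 2.8K.

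**Figure D2:**
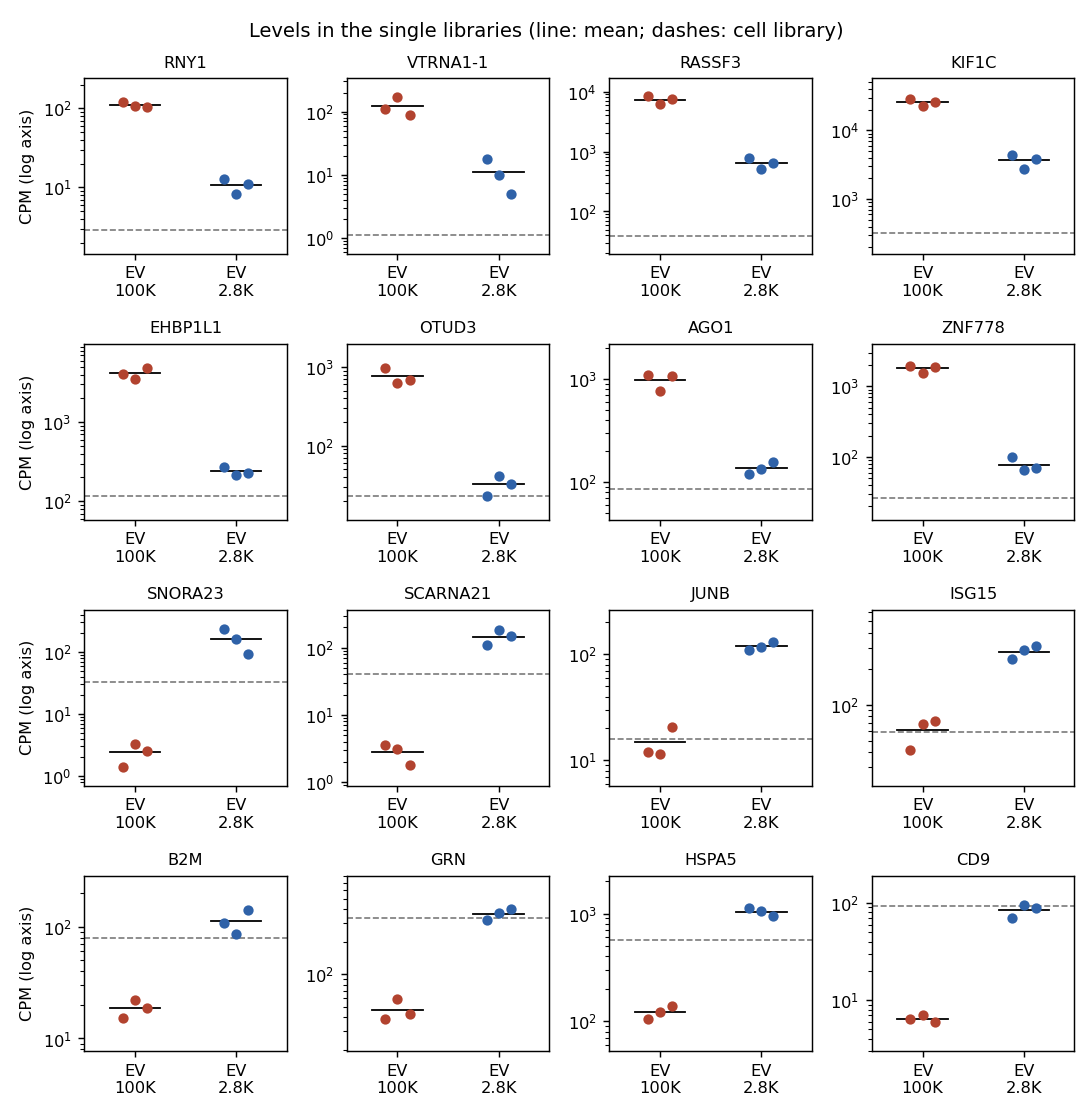
Level of 16 genes in each EV 100K library (left, red) and each EV 2.8K library (right, blue), in CPM on a log axis that differs between panels; black lines are means of 3 libraries and dashes mark the single cell library. The first 8 genes are higher in all EV 100K libraries and the last 8 lower, with no overlap, and for JUNB and ISG15 the EV 100K libraries lie on both sides of the cell level.

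The mRNAs with the largest increases, among those that averaged 20 CPM or more in EV 100K, were of unlike function. EHBP1L1, a membrane-traffic adaptor that binds RAB8, was at 4092, 3542 and 4830 CPM in EV 100K, against 274, 216 and 229.7 CPM in EV 2.8K, a log2 fold change of 4.12 (SE 0.22, adjusted p = 2.52e-05). OTUD3, which removes ubiquitin from its targets, was at 974, 625 and 691 CPM in EV 100K, against 23.1, 40.8 and 32.6 CPM in EV 2.8K, with 4.58 (SE 0.29, adjusted p = 2.62e-05). ZNF778, a KRAB zinc finger protein, was at 1978, 1554 and 1873 CPM in EV 100K, against 99.1, 65.9 and 68.7 CPM in EV 2.8K, with 4.54 (SE 0.24, adjusted p = 2.52e-05). For these 3 mRNAs every EV 100K library exceeded the highest EV 2.8K library by more than 10 times. Others were PITPNM3 (4.71), a phosphatidylinositol-transfer family member; GPR173 (4.96), an orphan receptor; IBA57 (4.30), which helps to mature iron-sulfur proteins in mitochondria; and RAB40B (4.32), a RAB that recruits a ubiquitin ligase. RFLNB, a filamin-binding protein, was at 41.3, 34.2 and 18.1 CPM in EV 100K, against 0, 0.419 and 0 CPM in EV 2.8K. Only 1 EV 2.8K library had counts of it, so it is given without a fold. RPL37, a ribosomal protein of the large subunit, was higher by 4.16, but has processed pseudogenes that can share its reads.

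Some lists of nuclear regulators were called higher more often than lower, and others were not. Of 35 chromatin remodellers 7 were higher and 7 lower, of 30 Mediator subunits 5 and 6, and of 48 DDX and DHX helicases 4 and 17. Of 412 tested zinc finger protein mRNAs of the KRAB and ZNF type, which mostly encode DNA-binding repressors, 66 were higher (16%) and 5 lower (1.21%). Of nuclear protein-coding genes, 13.2% were higher, a share near that of the list, and 16.3% were lower. Some higher members, such as ZNF273 and ZNF43 with no count in EV 2.8K, passed the filter on low counts through EV 100K alone. The higher count ran from 36 to 102 with single libraries left out, the highest without EV 2.8K replicate 1 and the lowest without EV 100K replicate 1, and the list median was 0.52 against -0.08 over nuclear protein-coding genes. ZNF430 (2.98) and ZNF124 (2.99) were among the higher members. The 5 lower members were ZNF844 (-2.08), ZNF185 (-1.55), ZNF335 (-1.45), ZNF593 (-1.21) and ZNF503 (-0.81), of which ZNF185 encodes an actin-associated LIM-domain protein and no repressor.

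Of 12 mRNAs of the microRNA machinery, 6 were higher and none lower, with a median of 1.18. AGO1, an Argonaute that holds the guide microRNA, was at 1078, 764 and 1064 CPM in EV 100K, against 120.2, 133 and 158 CPM in EV 2.8K, a log2 fold change of 2.84 (SE 0.21, adjusted p = 4.33e-05). AGO2, the Argonaute that can cut its target, was higher by 1.63. The others were TNRC6A (1.18) and TNRC6B (1.52), which bring in the enzymes that shorten poly(A) tails, and DICER1 (1.18) and DGCR8 (1.65), which process microRNA precursors. The same shares, 13.2% higher and 16.3% lower, are the background of the other protein-coding lists.

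Among 42 histone lysine methyltransferases and demethylases, 11 were higher (7 to 14 with single libraries left out), among them the H3K36 methyltransferases NSD1 (1.77), NSD2 (1.88), NSD3 (1.79) and SETD2 (1.74) and the demethylase KDM5A (0.99). The lower members, 4 in number, were the demethylases KDM3A (-1.46), KDM5B (-0.78), KDM5C (-1.26) and KDM6A (-1.53). DNA repair mRNAs were called in both directions, with 18.2% higher and 12.1% lower. These shares are near the backgrounds of 13.2% and 16.3%. BRCA1 (2.62), which acts in homologous recombination, FANCM (1.98) of the Fanconi pathway, POLQ (2.03) of microhomology-mediated joining, and ATRX, CHEK1 and RIF1 made up the 6 of 33 that were higher. The 4 lower ones were XRCC5 (-1.27), XRCC6 (-0.95) and PRKDC (-0.53), which form the complex that binds broken ends for non-homologous joining, and PARP1 (-1.88), which senses breaks; 2 to 4 were lower with single libraries left out.

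In the TGF-beta, WNT and Hippo list, 6 of 20 were higher (2 to 6 with single libraries left out) and none lower. They were APC (1.92) and AXIN1 (1.11), scaffolds of the complex that destroys beta-catenin, LRP6 (1.61), a WNT co-receptor, AJUBA (1.48), and WWTR1 (0.84) and TEAD1 (0.81), a coactivator and a DNA-binding partner in the Hippo pathway. Of 44 ubiquitin-specific proteases, 10 were higher, such as USP46 (1.97) and USP12 (1.88), catalytic subunits that share the activators WDR48 and WDR20. The 5 lower members were USP5 (-1.91), USP19 (-1.85), USP11 (-1.80), USP39 (-1.45) and USP8 (-1.07). Of 47 mRNAs of replication-dependent histones, which end in a stem-loop instead of poly(A), 19 were higher (11 to 25 with single libraries left out) and only H2BC12 (-1.02) and H2AC6 (-0.92) were lower in this test. Histone genes are near-identical copies, so reads may have been split among them.

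**Figure D3:**
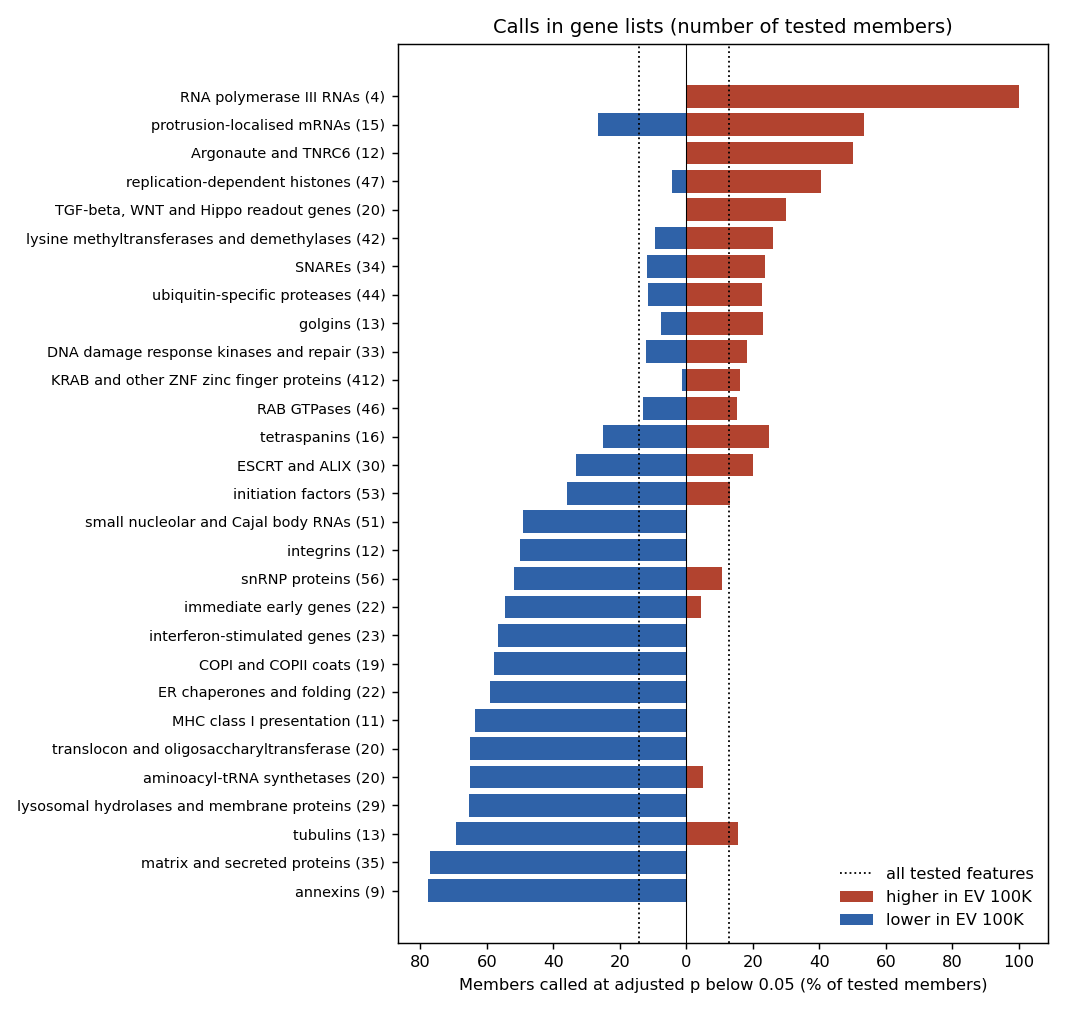
Share of the tested members of each gene list called higher (red, to the right) or lower (blue, to the left) in EV 100K, in percent; dotted lines mark the shares over all tested features, 12.9% higher and 14.3% lower, and numbers in brackets are tested members. The lists of coat subunits, ER chaperones, the translocon, matrix and secreted proteins, the lysosome and the interferon response extend to the left only, golgins to both sides, and the list of RNA polymerase III RNAs to the right only.

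The lowest mRNAs in EV 100K outside the mitochondrial genome included short-lived transcripts of inducible genes. Of 22 immediate early genes, which cells switch on within minutes of a stimulus, 12 were lower and 1, MCL1 (1.06), was higher. FOS, part of the AP-1 transcription factor, was at 0, 2.02 and 0.481 CPM in EV 100K, against 52.4, 22.5 and 17.2 CPM in EV 2.8K, a log2 fold change of -5.24 (SE 1.02, adjusted p = 0.00469), and the cell library held 0.0575 CPM. EGR1, a zinc finger transcription factor, had no count in EV 100K and was at least 26.7-fold lower there. JUNB, a partner of FOS, was at 12.1, 11.6 and 20.9 CPM in EV 100K, against 109.5, 117 and 131 CPM in EV 2.8K, with -2.99 (SE 0.30, adjusted p = 0.000149) and 15.8 CPM in the cell library. For JUNB the EV 2.8K libraries all stood above the cell library and the EV 100K libraries on both sides of it. ATF3 (-3.60), a stress-induced repressor, ZFP36 (-3.40), which triggers decay of mRNAs with AU-rich elements, and DUSP1 (-3.23), a MAP kinase phosphatase, were lower too. GDF15, a stress-induced secreted cytokine, was at 17.3, 34.4 and 36.7 CPM in EV 100K, against 289.7, 676 and 752 CPM in EV 2.8K and 35.1 CPM in the cell library, a log2 fold change of -4.27 (SE 0.43, adjusted p = 0.000156).

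Interferon-stimulated mRNAs were lower in 13 of 23 cases and higher in none (6 to 18 lower with single libraries left out), with a median of -1.73. ISG15, a ubiquitin-like protein, was at 42.2, 68.9 and 72.7 CPM in EV 100K, against 243, 286 and 311 CPM in EV 2.8K (log2 fold change -2.18, SE 0.25, adjusted p = 0.000291). IRF1 (-2.86), a transcription factor of the interferon response, and IFIT1 (-1.99), which binds foreign RNA, were lower as well. Of 11 genes of MHC class I antigen presentation, 7 were lower and none higher. B2M, the light chain of class I molecules, was at 15.3, 22.1 and 18.6 CPM in EV 100K, against 108, 86.8 and 142 CPM in EV 2.8K (log2 fold change -2.57, SE 0.28, adjusted p = 0.000237).

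mRNAs that are translated at the endoplasmic reticulum (ER) differed by list, and the 4 lists named next had members called lower and none called higher. The integrin and MHC class I lists, described in other paragraphs, had none higher either. Lower were 13 of 22 ER chaperones and folding enzymes (median -1.46), 13 of 20 subunits of the translocon and of the enzyme that adds sugar chains (median -0.997; 5 to 13 with single libraries left out), 27 of 35 matrix and secreted proteins (-1.74) and 19 of 29 lysosomal proteins (-1.67). Other lists tied to the ER or to membranes had higher members, though not all mRNAs in them are translated at the ER. Of 13 subunits of signal peptidase and the signal recognition particle, 2 were higher and 5 lower. Solute carriers of the plasma membrane and organelles, with 9 higher and 20 lower of 131 (median 0.07), had a share called lower near the background. Of 21 DHHC palmitoyltransferases, 2 were higher and none lower.

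HSPA5, the ER's HSP70 chaperone, was at 105, 122.7 and 138 CPM in EV 100K, against 1116, 1066 and 949 CPM in EV 2.8K and 562 CPM in the cell library, a log2 fold change of -3.09 (SE 0.20, adjusted p = 2.54e-05). THBS1, the secreted adhesion protein thrombospondin, was at 11.5, 12.3 and 12.3 CPM in EV 100K, against 195, 114 and 122 CPM in EV 2.8K (log2 fold change -3.56, SE 0.29, adjusted p = 5.8e-05). GRN, the precursor of lysosomal granulins, was at 38.9, 58.6 and 43.5 CPM in EV 100K, against 319, 367 and 403 CPM in EV 2.8K (log2 fold change -2.94, SE 0.23, adjusted p = 4.8e-05). TPP1, a lysosomal peptidase, was lower by a log2 fold change of -3.43, and NEU1, a sialidase, by one of -2.98.

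Proteins enter the ER through a hydrophobic stretch near their start, which is encoded in the first codons. The coding starts of 4 ER or secreted proteins and of the cytosolic relatives of 2 chaperones are shown, because these relatives differ in that stretch. Each line gives 30 codons from the start codon, GENCODE release 29, 5′ to 3′; the capitals mark the codons of the most hydrophobic window of 10 residues among residues 2 to 35, on the Kyte-Doolittle scale.
HSPA5: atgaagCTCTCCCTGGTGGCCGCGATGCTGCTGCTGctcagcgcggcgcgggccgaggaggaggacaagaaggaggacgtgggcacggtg
HSPA8: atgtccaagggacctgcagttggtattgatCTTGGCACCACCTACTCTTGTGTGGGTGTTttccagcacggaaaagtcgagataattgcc
HSP90B1: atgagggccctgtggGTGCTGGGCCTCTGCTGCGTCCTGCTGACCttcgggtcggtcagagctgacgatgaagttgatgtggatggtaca
HSP90AB1: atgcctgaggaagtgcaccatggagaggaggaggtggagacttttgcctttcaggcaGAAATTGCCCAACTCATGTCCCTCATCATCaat
CALR: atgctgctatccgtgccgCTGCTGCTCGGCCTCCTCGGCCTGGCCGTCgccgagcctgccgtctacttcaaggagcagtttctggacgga
THBS1: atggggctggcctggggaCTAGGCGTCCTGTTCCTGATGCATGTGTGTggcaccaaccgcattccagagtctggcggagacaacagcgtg
The window means were 2.79 for HSPA5 and 1.04 for its cytosolic relative HSPA8, 2.75 for HSP90B1 and 1.7 for its cytosolic relative HSP90AB1, 2.8 for CALR and 2.34 for THBS1, where higher is more hydrophobic. The genes lie on GRCh38 at chr9:125234853-125241330, minus strand (HSPA5), chr11:123057489-123063230, minus strand (HSPA8), chr12:103930107-103953645, plus strand (HSP90B1), chr6:44246166-44253888, plus strand (HSP90AB1), chr19:12938578-12944489, plus strand (CALR) and chr15:39581079-39599466, plus strand (THBS1).

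Both kinds of chaperone mRNA were lower in EV 100K. HSPA8 was at 419.5, 516 and 418 CPM in EV 100K, against 1734, 1545 and 1596 CPM in EV 2.8K, a log2 fold change of -1.84 (SE 0.18, adjusted p = 0.000137), beside -3.09 for HSPA5. HSP90AB1 was at 559, 569 and 579 CPM in EV 100K, against 2009, 2082 and 2498 CPM in EV 2.8K, a log2 fold change of -1.94 (SE 0.18, adjusted p = 8.8e-05), beside -2.87 for HSP90B1. The difference between an ER member and its cytosolic relative was not tested. In the list of cytosolic and mitochondrial heat shock proteins, 10 of 16 were lower and none higher (median -0.97). Of all nuclear protein-coding genes, 13.2% were higher and 16.3% lower, with a median of -0.08. The 1808 whose best window had a mean of at least 2, a threshold set after the values were seen, were higher in 7.63% and lower in 19.9%. Their median log2 fold change was -0.38, and -0.136 with limma-voom and -0.189 with a replicate block. Under these 2 settings the medians of other gene bins rose too, such as from 0.0673 to 0.197 and 0.185 for the longest coding sequences. Across genes, the window mean and the log2 fold change had a Spearman correlation of -0.07 over 11561 genes, which share libraries and are no independent replicates.

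Vesicle transport genes were called in both directions. Of 19 subunits of the COPI and COPII coats, which carry cargo between ER and Golgi, 11 were lower (7 to 12 with single libraries left out) and none higher, COPE (-2.44) and COPG1 (-2.43) farthest. Of 9 p24 cargo receptors, 6 were lower, such as TMED10 (-1.75), and TMED8 (2.32) was higher. Golgins, long tethers of the Golgi, had 3 higher of 13 (GOLGA3 2.11, GOLGB1 1.68, GOLGA2 1.22) and 1 lower (USO1 -1.24). SNAREs, which fuse membranes, had 8 higher of 34, and 4 lower, in both cases from more than one compartment. The higher ones were STX16 (2.11) and STX6 (1.83) of the trans-Golgi network, GOSR1 (1.48), GOSR2 (1.26), SEC22C (1.14) and YKT6 (1.32), which act in or around the early secretory route, VAMP3 (1.17) of recycling endosomes and STX2 (0.83) of the plasma membrane. The lower ones were STX5 (-2.03) and STX18 (-1.45) of the early secretory route, and STX4 (-1.84) and SNAP23 (-1.66) of the plasma membrane. RAB GTPases, with 7 higher and 6 lower of 46, were near the backgrounds.

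Genes whose proteins are used as EV markers were not alike in their mRNAs. CD9, a surface tetraspanin, was at 6.33, 6.98 and 5.94 CPM in EV 100K, against 70.4, 94.7 and 89 CPM in EV 2.8K and 93.5 CPM in the cell library, a log2 fold change of -3.71 (SE 0.29, adjusted p = 4.7e-05). CD81 (-1.93), CD151 (-2.39) and TSPAN3 (-1.06) were the other lower members among 16 tetraspanins. TSPAN13 was at 287, 169 and 215 CPM in EV 100K, against 20.4, 17.5 and 20.6 CPM in EV 2.8K (log2 fold change 3.54, SE 0.26, adjusted p = 3.93e-05), and TSPAN6 (1.57), TSPAN17 (1.39) and TSPAN5 (0.84) were higher too. CD63, the tetraspanin of late endosomes, was at 316, 276 and 311 CPM in EV 100K, against 154, 223 and 239.9 CPM in EV 2.8K, and was not called different by edgeR (log2 fold change 0.56, SE 0.21, adjusted p = 0.0741), although the groups did not overlap. DESeq2's Wald test called it higher (0.61, adjusted p = 0.0327). Annexins, which bind membranes in the presence of calcium, were lower in 7 of 9 cases and integrins, the matrix receptors, in 6 of 12, with none higher in either list. ANXA1 (-3.13) and ITGA5 (-3.23), the alpha chain of the fibronectin receptor, were farthest among the called members.

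The ESCRT machinery, which buds vesicles away from the cytoplasm, had 6 of 30 mRNAs higher (2 to 6 with single libraries left out) and 10 lower (5 to 10). VPS25, a subunit of ESCRT-II, was at 426, 383 and 273 CPM in EV 100K, against 22.1, 20.5 and 19.9 CPM in EV 2.8K (log2 fold change 4.13, SE 0.24, adjusted p = 2.52e-05), and VPS36 of the same complex was higher by 2.12. The ESCRT-I subunits VPS37B and VPS37C were higher and VPS28 (-0.90) was lower. Of ESCRT-III, which cuts the neck of the bud, CHMP6 (0.91) and CHMP3 (0.85) were higher, and CHMP5 (-2.16), CHMP1B (-1.44), CHMP2A (-1.41), CHMP2B (-1.26) and CHMP4B (-0.91) lower. PDCD6IP (-1.09), the ALIX protein, and SDCBP (-1.31), the syntenin that binds it, were lower. These are values of mRNAs and say nothing of the proteins in the pellets.

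Aminoacyl-tRNA synthetases, spliceosomal proteins and initiation factors were called lower more often than higher. Aminoacyl-tRNA synthetases, which load tRNAs with amino acids, were lower in 13 of 20 cases (8 to 15 with single libraries left out), such as SARS1 (-1.94) and TARS1 (-1.62), and RARS1 (0.83) was higher. Of 56 proteins of the spliceosomal particles, 29 were lower and 6 higher, with a median of -1.20. PRPF8, the core of the spliceosome's active site, was at 59.6, 94.8 and 88.2 CPM in EV 100K, against 458, 312 and 294 CPM in EV 2.8K (log2 fold change -2.12, SE 0.26, adjusted p = 0.000407). SNRPD1 (1.89) and SNRPE (1.31), members of the Sm ring, were higher, while the ring's SNRPD2 (-2.27), SNRPD3 (-1.36), SNRPF (-1.10), SNRPG (-1.12) and SNRPB (-0.84) were lower. Translation initiation factors had 7 higher and 19 lower of 53 (11 to 19 lower with single libraries left out).

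Within the initiation factors, partners of the cap-binding step differed in sign. EIF4EBP1, a repressor that sequesters the cap-binding protein, was lower by a log2 fold change of -1.84, and its relative EIF4EBP2 was higher at 844, 841 and 876 CPM in EV 100K, against 112, 122 and 102 CPM in EV 2.8K (log2 fold change 2.94, SE 0.18, adjusted p = 2.52e-05). EIF4E2 (1.24) and EIF4E3 (2.88), alternative cap-binding proteins, and EIF4ENIF1 (1.47), which carries EIF4E into the nucleus, were higher. Of the large EIF3 complex, EIF3A (1.24) was higher and EIF3C, EIF3G, EIF3I, EIF3B, EIF3H, EIF3D, EIF3K and EIF3J were lower (-2.17 to -0.82). Of 13 tubulins, 9 were lower and TUBA1C (1.00) and TUBA1B (0.82) higher; these are near-identical to TUBA1A (-1.89), so their values are uncertain relative to each other.

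The length of the 3′ untranslated region (3′ UTR), the part of an mRNA after the stop codon where microRNAs and many localisation proteins bind, had the highest correlation with the log2 fold change of the transcript features examined. It was added after the data had been seen. When 11588 nuclear protein-coding genes were split into 5 equal bins by annotated 3′ UTR length, the share called higher was 7.94%, 8.5%, 10.9%, 13.8% and 24.6% with rising length. The share called lower was 22.9%, 22.8%, 17%, 12.2% and 6.69%. These bins rest on 1 complete transcript per gene, the one with the longest coding sequence; with the APPRIS principal transcript, 7.33% of the shortest and 24.5% of the longest bin were higher. The bin with the longest 3′ UTRs took 27.1%, 26.3% and 27.7% of nuclear mRNA counts in EV 100K, against 15%, 16.3% and 17.7% in EV 2.8K. The groups did not overlap, the EV 10K libraries lay between them at 20.5%, 19.2% and 20%, and the cell library was at 18.4%. Without the protrusion list, 3 of whose members fall in this bin, the shares were 25%, 24.5% and 25.8% in EV 100K, against 14.5%, 16% and 17.2% in EV 2.8K. An exact two-sided permutation test of the share on this bin, with the protrusion list kept, gave p = 0.1, the smallest it can give for 3 against 3 libraries, at a difference of 10.7 percentage points.

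**Figure D4:**
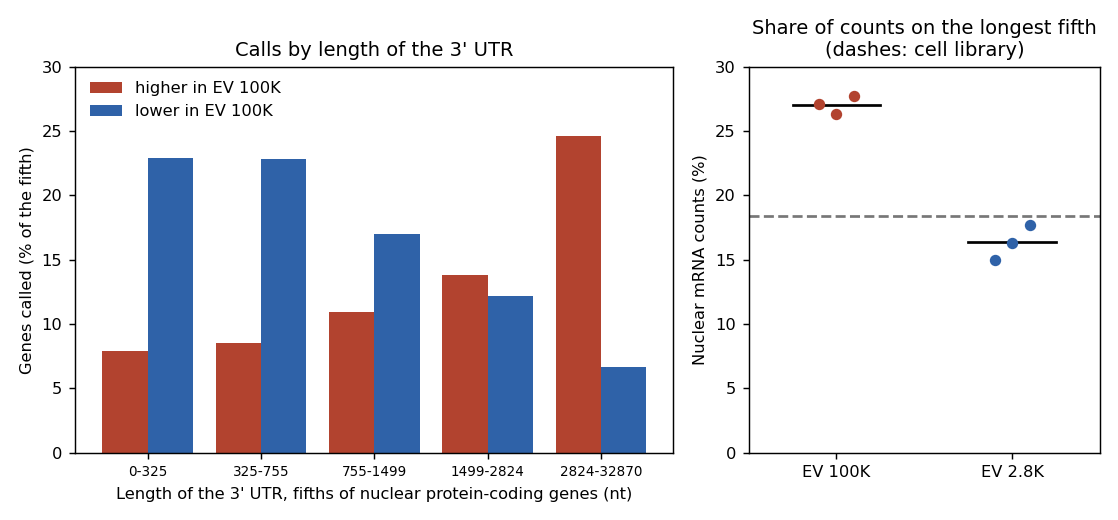
Left, percent of nuclear protein-coding genes called higher (red) or lower (blue) in EV 100K in 5 equal bins by 3′ UTR length in nucleotides. Right, percent of nuclear mRNA counts on the longest bin in each EV 100K and EV 2.8K library, with black lines for means of 3 libraries and dashes for the cell library; the EV 100K libraries lie between 26.3% and 27.7% and all EV 2.8K libraries below them.

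As a description across genes, the Spearman correlation with the log2 fold change was 0.25 for 3′ UTR length (0.26 with the APPRIS principal transcript), 0.24 for spliced length, 0.08 for coding length, -0.2 for GC content and -0.21 for exons per kb. 3′ UTR length and GC content go together, so calls were also read within 3 equal bins of GC content and 3 of 3′ UTR length. In the GC-rich bin, 20.2% of genes with long 3′ UTRs were higher and 7.69% lower, against 5.79% higher and 28.5% lower of those with short ones. In the GC-poor bin, 18.2% of genes with long 3′ UTRs were higher and 8.25% lower, against 9.05% higher and 12.8% lower of those with short ones. The order by 3′ UTR length was the same in each of 3 bins of coding length, where 18.2% to 23.3% of genes with long 3′ UTRs and 6.79% to 9.16% of genes with short ones were higher. Restricted to genes with a mean of at least 20 CPM, the longest of 5 bins was called higher in 34.7% and the shortest in 12.3%.

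The calls were also read against the cell library and the intermediate pellet. Of the 1860 features higher in EV 100K, 1765 had an EV 100K mean above the cell library, and 704 were above it in EV 2.8K as well; of all tested features, 47% were above it in EV 100K and 49% in EV 2.8K. Of the 2050 lower features, 1467 had an EV 2.8K mean above the cell library, 138 were above it in both pellets and 583 were below it in both. The EV 10K mean lay between the 2 pellets for 1699 of the higher and 1689 of the lower features, and for 52.4% of all tested features. Called features were selected for a gap between the 2 pellets. That selection by itself raises the counts above the cell library and between the pellets, so their excess over all features is no separate result. The cell library is single and has no replicate check.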

How the data were processed

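The deposited table gives raw counts per gene for 10 libraries of PC3 cells and their EVs; these counts were made by the authors with featureCounts 1.6.3 and STAR 2.6.1d on GRCh38, with cutadapt 2.7 and bcl2fastq 2.19.1.403, per the submitters' processing notes. The labels' protocols name Trizol extraction and a SMARTer stranded total RNA kit; how shared reads and strand were counted is not stated there. Of 94946 entries, 45574 carry GENCODE release 29 identifiers and 49372 are names of a lncRNA catalogue. The 3 EV 100K and 3 EV 2.8K libraries were tested with edgeR 4.0.16 (R 4.3.3; filterByExpr with a minimum count of 10, TMM factors, robust quasi-likelihood F-test, Benjamini-Hochberg adjustment over all 14377 features, threshold 0.05); every adjusted p in the text is from this test unless DESeq2 is named. Fold changes are EV 100K over EV 2.8K, from 6 libraries; CPM use TMM factors of all 10. Depths of 5424964 to 14977955 counts limit the precision of rare RNAs, and floors of 3 counts over a group cover counting error only. Transcript features came from 1 GENCODE transcript per gene (complete, in CCDS, longest coding sequence). The genes named follow a rule on the size and p of the change and up to 2 members per list; others were chosen after their values were seen. Members and lists were chosen with earlier results of these data known. Alternatives were other scalings, filters, DESeq2 1.42.0, limma-voom 3.58.1, wider fits, a replicate block and leaving out each library.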

Additional observations from a re-analysis of the deposited data

How the results depend on the processing

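Counts of features higher and lower in EV 100K stayed within 1.5 times of the reported ones under the 11 alternatives that kept all libraries: 1936 and 1949 with DESeq2's size factors, 2551 and 2433 with DESeq2's own test, 1920 and 2297 with limma-voom. The set numbers did not pair the libraries (correlations of same-numbered deviations -0.02, 0.005 and 0.08); a replicate block gave 1732 and 1723. With single libraries left out, where a group of 2 is assumed to vary like the other, 1114 to 2585 were higher and 1188 to 2460 lower. Called higher then ran from 36 to 102 ZNF genes, 2 to 6 ESCRT, 4 to 10 RAB GTPases, 4 to 10 SNAREs, 2 to 6 TGF-beta, WNT and Hippo genes, 0 to 1 synthetases, 3 to 5 golgins, 0 to 3 immediate early genes, 7 to 14 lysine methyltransferases and demethylases, 11 to 25 histones and 1 to 5 snRNAs. Called lower ran from 7 to 12 coat subunits, 2 to 4 repair genes, 5 to 10 ESCRT, 2 to 8 ZNF genes, 8 to 15 synthetases, 0 to 2 golgins, 11 to 19 initiation factors, 6 to 18 interferon-stimulated genes, 1 to 4 lysine methyltransferases and demethylases, 8 to 22 mitochondrial ribosomal proteins, 1 to 3 histones, 14 to 27 small nucleolar and Cajal body RNAs, 0 to 1 snRNAs and 5 to 13 translocon subunits; the median of the bin with the longest coding sequences ran from 0.0696 to 0.137. DESeq2 called 8 ZNF genes and 41 small nucleolar and Cajal body RNAs lower and 5 golgins higher. The fit on 9 EV libraries called 5 import genes lower. limma-voom called 2 immediate early genes and 2 snRNAs higher and 4 histones lower; upper-quartile factors called 1 histone lower. No filter on low counts gave 2 snRNAs higher and 0 lower, as did the replicate block. Medians of the shortest and longest 3′ UTR bins were -0.243 and 0.676 with limma-voom and -0.277 and 0.638 with the replicate block, those of the shortest and longest coding bins -0.0966 and 0.197, and -0.133 and 0.185, and those of genes with a hydrophobic start -0.136 and -0.189. Without mitochondrially encoded genes, nuclear mRNAs made up 92.4% and pseudogenes 2.34% of EV 2.8K counts. The cause of these moves was not tested. No named gene reversed; 20 of 3090 gene-by-setting results lost significance with all libraries kept, where 1 gained it (CD63 with DESeq2, adjusted p = 0.0327), and 83 of 1698 lost it with 1 left out. Depth limits RNAs near the floor: 41 lower features had no count in EV 100K and 146 higher ones none in EV 2.8K.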
